A study of Mus musculus with 12 samples.

Results

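Transcript levels of 7 genes of the B cell and plasma cell lineage (Cd79a, Cd79b, Blnk, Ms4a1, Pax5, Pou2af1 and Jchain) were followed through mammary tumours of 6 transgenic mouse strains. The members were the array probes whose gene name in the files, or whose current symbol by the probe's transcript accession, was one of these 7 symbols. They came to 7 of 28351 genes tested and 9 of 41174 probes: Ms4a1 and Jchain had 2 probes each, and Jchain appeared in the files under its older name Igj. Every strain carried an activated neu (ErbB2) transgene, called NDL, driven in mammary epithelium by the MMTV promoter, and the tumours came from female mice that had borne tumours for 6 weeks; the ages of the animals were not given in the labels. NDL25 was the parental strain. From what is known of these strains, the tail of the NYPD receptor has lost its tyrosines for autophosphorylation, and in YB, YC, YD and YE 1 such tyrosine was restored to it. Each strain gave 10 tumours, and equal amounts of RNA from 5 of them made up each of its 2 pools, so that a group held 2 biological samples. The RNA of a pool was hybridised on 2 arrays, with the dyes exchanged, against Universal Mouse Reference RNA (a purchased blend of RNAs from several mouse cell sources), which gave 24 arrays for 12 pools.

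B cells recognise antigen through a membrane immunoglobulin that signals through the CD79A and CD79B chains, and the adaptor BLNK links the kinase SYK to the enzymes downstream of the receptor. PAX5 holds cells in the B lineage, and POU2AF1 is a coactivator for the octamer-binding factors that drive immunoglobulin genes. On differentiation to plasma cells PAX5 and MS4A1 are lost, and the cells secrete antibody, polymers of which are joined by the J chain. The lactating mammary gland is a known home of plasma cells that supply antibody to milk.

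All values below are log2 ratios of tumour over reference, averaged over the 2 arrays of a pool, so 0 means equal signal and a negative value means that the tumour RNA gave the lower signal. The ratio of a gene depends on how much of it the reference mixture holds, so levels were compared between pools and not between genes. Fewer cells of a type and less RNA per cell cannot be told apart in pooled bulk tumours. The 10 luminal and milk genes tested averaged 1.64 to 2.78 over the reference in all 12 pools. The direction of each array had been set by the median of this list, so its place above the reference is not a result. All 9 member probes were well above background in both channels of all 24 arrays, although this says little, because 97.3% or more of spots were on every array. Array image files had been processed on 3 calendar days, here called sessions. NDL25, YB and pool 1 of YC were in session 2, and YD and YE were in session 1. Pool 2 of YC had 1 array in session 1 and 1 in session 2. NYPD was alone in session 3, for which session and strain cannot be told apart. Comparisons of YD or YE with NDL25 or YB also compare sessions, which only the arrays of YC link.

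One of the 7 genes, Blnk, differed between the strains by the F test, and the promoter of this gene is shown because it was the one promoter among those matched that held the octamer, the DNA motif bound by the factors with which POU2AF1 works. Promoter windows of 300 bases (250 before and 50 after the transcription start) were taken from RefSeq on GRCm38.p6, and 5 of the 7 genes matched (Blnk, Cd79a, Jchain, Pax5 and Pou2af1). The Blnk window lies at chr19:40994172-40994471 on the minus strand and is printed 5′ to 3′ in the direction of transcription, with the octamer in capitals.
Blnk promoter: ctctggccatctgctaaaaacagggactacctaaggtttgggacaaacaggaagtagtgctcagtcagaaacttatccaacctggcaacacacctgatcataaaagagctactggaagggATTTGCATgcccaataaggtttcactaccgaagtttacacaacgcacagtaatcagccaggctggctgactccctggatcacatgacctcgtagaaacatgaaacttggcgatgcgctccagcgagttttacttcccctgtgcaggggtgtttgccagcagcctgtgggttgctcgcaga

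The motif searched was ATGCAAAT on both strands, which reads ATTTGCAT in reverse. In Blnk it stood at positions -130 to -123 relative to the start, as ATTTGCAT. It occurred in 1 of the 5 member promoters and in 570 of 32851 promoters of the same length (1.74%). Counted by gene, as the members are, it occurred in 532 of 27025 genes (1.97%). A match of letters is a description and not a binding site.

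Blnk was the 1 member with a large difference between strains, and the difference lay in YB tumours. Blnk was above the reference in both YB pools and below it in the other 10 pools, and YB tumours had 3.77-fold more Blnk signal than NDL25 tumours. Among the other 6 genes 1 further difference passed the test, Ms4a1 in YB against NYPD, on 1 of its 2 probes. Cd79b, Pou2af1, Ms4a1 and Jchain were below the reference in all 12 pools, Pax5 was slightly above it in all 12, and Cd79a was within 0.24 log2 units of it throughout. By the F test over the 6 strains (limma, Benjamini-Hochberg adjusted p under 0.05, referred to below as passing the test or being called), 1 of 7 members passed, beside 3.18% of all 28351 genes. At an unadjusted p under 0.05 there were 3 of 7 members, beside 21.3% of all genes.

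**Figure D1:**
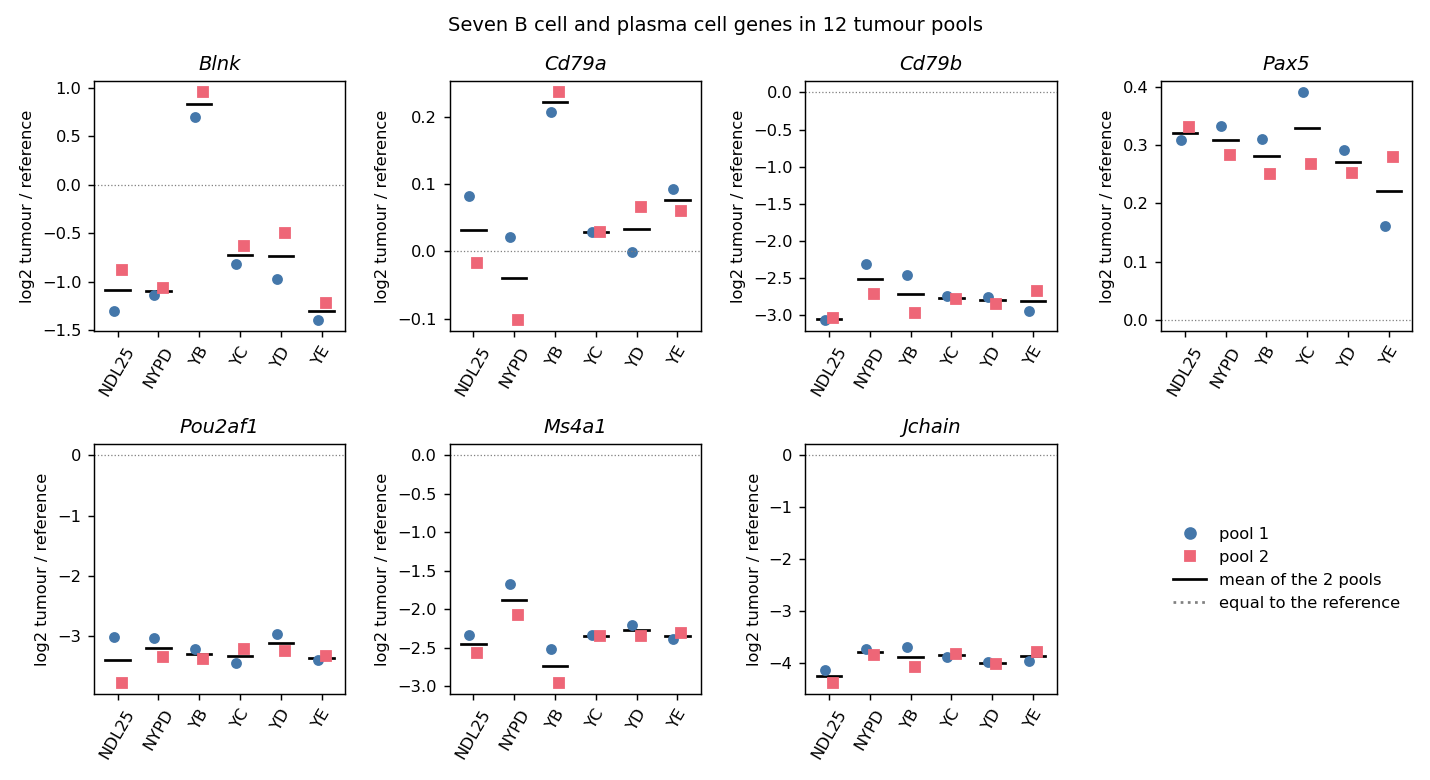
Log2 tumour over reference of the 7 genes in each of the 12 pools (circles pool 1, squares pool 2, bars the mean of the 2 pools, dotted line equal to the reference); the vertical scales differ between panels. Blnk in YB stands at 0.70 and 0.95 with every other pool below 0, whereas Pax5 spans only 0.16 to 0.39.

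The receptor chains were described first. Cd79a (chromosome 7, 24897497 to 24901858 on GRCm38.p6) encodes the alpha signalling chain of the B cell receptor. Its log2 ratio was 0.21 and 0.24 in the YB pools, 0.09 and 0.06 in YE, -0.00 and 0.07 in YD, 0.08 and -0.02 in NDL25, 0.03 and 0.03 in YC, and 0.02 and -0.10 in NYPD. The 2 YB pools were the highest of the 12 and did not overlap with any other strain, but the differences were small. YB exceeded NYPD by 0.26 ± 0.06 log2 units (SE; 1.20-fold; limma adjusted p = 0.0548) and NDL25 by 0.19 ± 0.06 (1.14-fold; limma adjusted p = 0.158), and neither passed the test. The F test gave an adjusted p of 0.211. Rises of this size in YB were not confined to B cell genes. Prm1, which encodes a sperm protamine, stood at 0.41 and 0.36 in YB and at 0.06 to 0.16 in the other strains. It was called in YB against NDL25 (0.29 ± 0.05, limma adjusted p = 0.0316) and against NYPD (0.0266). These calls were lost in 15 of 23 and 14 of 21 alternative analyses. Its other probes read -0.04 and 0.06 for YB against NDL25. Cd79a signals were similar in both channels, at 277 to 595 intensity units for tumour and 195 to 397 for reference, so a ratio near 0 here came from 2 modest signals.

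Cd79b (chromosome 11, 106311341 to 106314562) encodes the partner chain, and its probe gave much more signal with the reference (1681 to 3481 intensity units) than with tumour RNA (286 to 795). The log2 ratio was -2.31 and -2.72 in NYPD, -2.46 and -2.97 in YB, -2.74 and -2.79 in YC, -2.75 and -2.85 in YD, -2.94 and -2.67 in YE, and -3.06 and -3.03 in NDL25. Mean levels were therefore 5.71-fold (NYPD) to 8.27-fold (NDL25) under the reference. NDL25 was lowest and did not overlap with the next strain, YE, while each other strain overlapped with its neighbour in the order. NYPD exceeded NDL25 by 0.54 ± 0.19 (1.45-fold), which did not pass the test (limma adjusted p = 0.219), nor did the F test (adjusted p = 0.495). Over the 9 strain differences tested, the 95% intervals for Cd79b ran from -0.73 to 0.97.

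Blnk (chromosome 19, 40928927 to 40994221, minus strand) encodes the adaptor that couples the receptor to its downstream enzymes. Its log2 ratio was 0.70 and 0.95 in the YB pools, -0.81 and -0.63 in YC, -0.97 and -0.49 in YD, -1.30 and -0.88 in NDL25, -1.13 and -1.06 in NYPD, and -1.39 and -1.21 in YE. The YB pools did not overlap with any other pool: the lower of them stood 0.70 above the reference and the highest of the other 10 stood at -0.49. In mean and SD (n = 2 pools each) YB was at 0.83 ± 0.18, 1.78-fold over the reference, followed by YC at -0.72 ± 0.13, YD at -0.73 ± 0.33, NDL25 at -1.09 ± 0.30, NYPD at -1.10 ± 0.05 and YE at -1.30 ± 0.13. The 5 strains below the reference were 1.65-fold (YC) to 2.47-fold (YE) under it. Among them YC and YD overlapped, as did YD with NDL25 and NDL25 with NYPD, and only YE lay below NYPD without overlap, by 0.21 ± 0.19 (limma adjusted p = 0.588).

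The F test for Blnk gave an adjusted p of 0.0139 (limma). YB exceeded NDL25 by 1.92 ± 0.19 log2 units (SE; 95% interval 1.47 to 2.36; 3.77-fold; limma adjusted p = 0.00393) and NYPD by 1.93 ± 0.19 (3.80-fold; limma adjusted p = 0.00430). These comparisons share the YB pools. After the values had been seen, YB was also set against the other single-site strains in the same fit, where it exceeded YC 2.92-fold (limma adjusted p = 0.00763), YD 2.95-fold (0.00812) and YE 4.39-fold (0.00256). Across all genes 4.13%, 3.81% and 3.62% were called in these 3 comparisons, in that order. The arrays of YD and YE were in another session than those of YB, so the differences from YD and YE are also differences between sessions. A fit of session 2 alone (NDL25, YB and pool 1 of YC) held the same NDL25 and YB pools. Its difference from NDL25, 1.92, was therefore the same by construction and is not a second measurement. It did not pass the test in that smaller fit.

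The difference was visible in the raw channel signals. On the 4 YB arrays the tumour channel of the Blnk probe read 9423 to 14155 intensity units, against 1360 to 5386 on the other 20 arrays, with no overlap. The reference channel read 4811 to 6148 on the YB arrays and 3338 to 7423 on the others, which overlap. YB tumour signal was therefore the part that stood apart, with the tumour RNA in either dye.

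**Figure D2:**
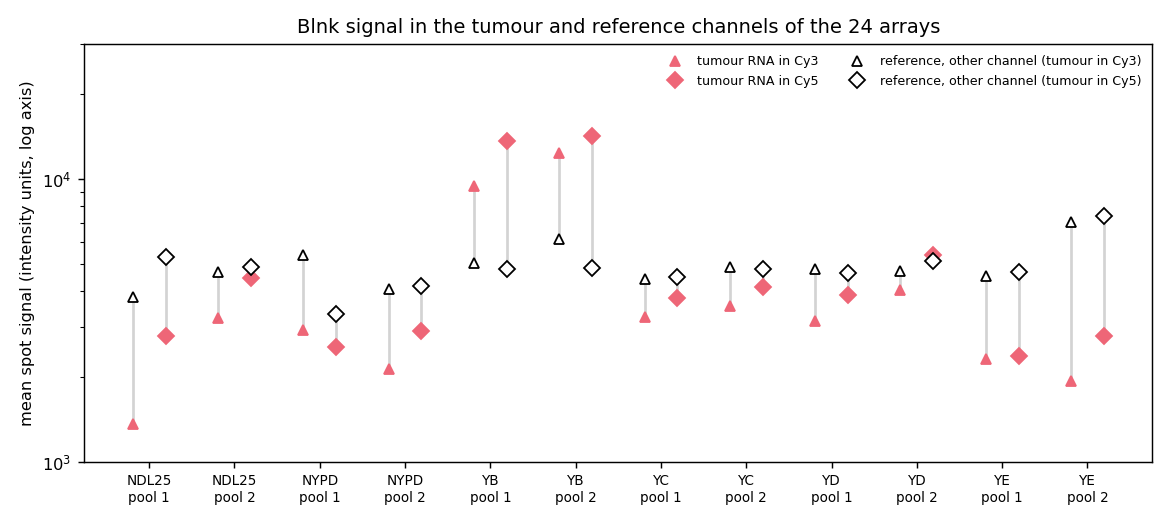
Mean spot signal of the Blnk probe in the tumour channel (filled) and the reference channel (open) of each of the 24 arrays, on a log axis in intensity units, with a triangle where the tumour RNA was in Cy3 and a diamond where it was in Cy5. On the 4 YB arrays the tumour signal lies above the reference signal, at 9423 to 14155 units.

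Gene lists of other cell types also differed in YB, the salivary list without overlap and the macrophage and luminal lists with overlap of other strains. The 11 salivary gland genes tested averaged 3.17 and 3.31 in the YB pools and 0.82 to 1.18 in the other 10. In YB against NDL25, 6 of 11 passed, all higher, beside 3.13% of all genes called higher. All these lists were chosen with earlier results of these data known, so the place of the salivary list in YB is a description and not an independent result. The 14 macrophage genes averaged 1.77 and 1.22 in YB, 0.90 and 0.87 in NDL25, 1.28 and 1.31 in NYPD and 0.50 to 1.07 elsewhere. Blnk is also expressed by macrophages. The 10 luminal and milk genes averaged 2.68 and 2.48 in YB, 1.86 and 1.80 in NDL25 and 1.64 to 2.78 in the other strains. Of these 10 genes 3 rose in YB against NDL25: Krt19 (10.6-fold; limma adjusted p = 0.0317), Ltf (4.26-fold; 0.00544) and Mfge8 (3.80-fold; 0.0241), calls lost in 10 of 23, 2 of 23 and 7 of 22 alternative analyses. These rises were not particular to YB: 0 of the 10 were called in YB against NYPD, and NYPD against NDL25 called Wap, Ltf and Mfge8. Mfge8, for example, stood at 2.43 and 2.36 in YB, 2.42 and 2.39 in NYPD, and 0.46 and 0.48 in NDL25. The part of these lists in the Blnk difference was not tested. The 12 pan-leukocyte genes did not set both YB pools apart: they averaged -0.65 and -1.25 in YB, -0.81 and -0.76 in NYPD, and -1.48 to -1.09 in the other strains.

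Likeness was computed for the 2 members whose pools spanned at least 1 log2 unit, Blnk and Ms4a1. Among the 5 genes with an ordinary symbol whose pattern over the 12 pools was most like that of Blnk by Pearson correlation were Aoah (r = 0.956), Atp2a3 (0.954), Tat (0.949) and Slc2a5 (0.949). Aoah encodes an enzyme that deacylates lipopolysaccharide, Atp2a3 a calcium pump of the endoplasmic reticulum, Tat tyrosine aminotransferase and Slc2a5 the fructose transporter GLUT5. Each of these 4 was highest in the 2 YB pools: Slc2a5, for example, stood at 1.91 and 1.86 there and at -0.16 to 0.38 in the other 10, and Atp2a3 at 0.84 and 1.21 against -0.41 to -0.11. Since the pools fall into YB and the rest, these correlations rest on the 2 YB pools and describe that split alone.

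Ms4a1 (chromosome 19, 11249679 to 11266149) encodes CD20, a surface protein of mature B cells that plasma cells lack. With the brighter probe, used in the fit, the log2 ratio was -1.67 and -2.08 in NYPD, -2.20 and -2.35 in YD, -2.33 and -2.35 in YC, -2.39 and -2.30 in YE, -2.34 and -2.57 in NDL25, and -2.52 and -2.95 in YB. The NYPD pools were the highest of the 12 and did not overlap with YD, the next strain, while YB was lowest and overlapped with NDL25. YB minus NYPD was -0.86 ± 0.17 log2 units (SE; 1.81-fold lower in YB), which passed the test (limma adjusted p = 0.0334). YB against NDL25, at -0.28 ± 0.17, did not (0.484), nor did NYPD against NDL25, at 0.58 ± 0.17 (0.163), and the F test gave an adjusted p of 0.155.

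The second Ms4a1 probe did not show this difference. It read -1.15 and -1.35 in NYPD, -1.34 and -1.49 in YB, -1.61 to -1.39 in the 6 pools of YC, YD and YE, and -1.70 and -1.68 in NDL25. Here the lowest strain was NDL25, and YB against NYPD was -0.17 ± 0.08 (limma adjusted p = 0.313). The call on the brighter probe was lost in 16 of 21 alternative analyses, in which the difference ran from -1.08 to -0.17 and adjusted p from 0.0174 to 0.379. Leaving out 1 pool ended it for every pool except YB pool 1. The order of the strains for Ms4a1 thus depended on the probe, and NYPD was highest with both.

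**Figure D3:**
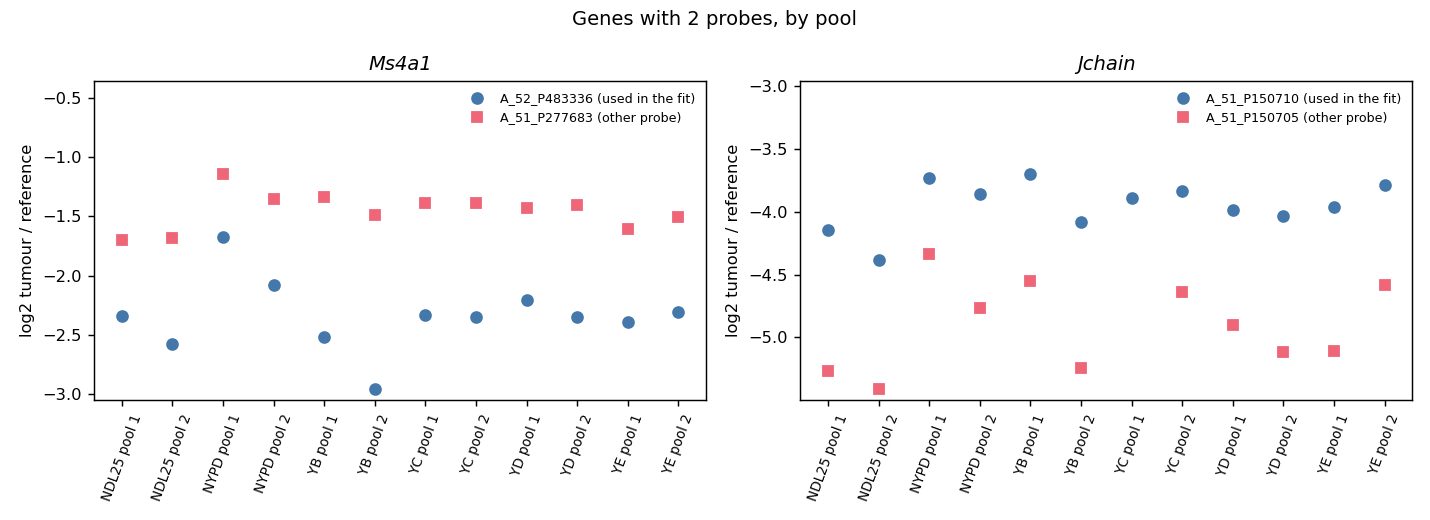
Log2 tumour over reference of the 2 probes of Ms4a1 (left) and the 2 probes of Jchain (right) in the 12 pools; circles are the probe used in the fit and squares the other probe. The Ms4a1 probes place YB differently, at -2.52 and -2.95 with the one and at -1.34 and -1.49 with the other, and the second Jchain probe has no point for YC pool 1.

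The 5 genes most like Ms4a1 (brighter probe) over the 12 pools were Sema3e (r = 0.966), Egfl6 (0.948), Pcdh9 (0.943), Elavl2 (0.936) and Tox (0.930). Sema3e encodes a secreted semaphorin, Pcdh9 a protocadherin, Elavl2 a neuronal RNA-binding protein and Tox a nuclear factor of T cell development. All 5 were below the reference in all 12 pools and highest in NYPD pool 1, where Tox stood at -2.66, against -3.88 to -3.20 in the other 11 pools. None of the 5 passed the F test, with adjusted p from 0.157 (Sema3e) to 0.505 (Elavl2).

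Pax5 (chromosome 4, 44524748 to 44710694) encodes the transcription factor that maintains B cell identity. The log2 ratio was 0.39 and 0.27 in YC, 0.31 and 0.33 in NDL25, 0.33 and 0.28 in NYPD, 0.31 and 0.25 in YB, 0.29 and 0.25 in YD, and 0.16 and 0.28 in YE. Each strain overlapped with its neighbour in that order. The F test did not pass (limma adjusted p = 0.772), and the 95% intervals of its 9 strain differences ran from -0.25 to 0.17. Its signals were dim, at 132 to 236 intensity units in the tumour channel and 90.5 to 185 in the reference channel, over a median local background of 39 to 64. The offset of 50 added in processing is not small beside such signals and draws their ratios towards 0. The intervals therefore do not bound a change in Pax5 RNA.

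Pou2af1 (chromosome 9, 51213690 to 51240079) encodes the coactivator OBF1, also called BOB.1. Its log2 ratio was -2.97 and -3.24 in YD, -3.02 and -3.35 in NYPD, -3.21 and -3.38 in YB, -3.44 and -3.21 in YC, -3.40 and -3.33 in YE, and -3.01 and -3.77 in NDL25. Within a strain the widest gap in this gene was between the 2 NDL25 pools, and every strain overlapped with its neighbour. Mean levels were 8.59-fold (YD) to 10.5-fold (NDL25) under the reference. The F test did not pass (limma adjusted p = 0.896), and the 95% intervals of the 9 strain differences ran from -0.73 to 0.83.

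Jchain (chromosome 5, 88519809 to 88527897) encodes the J chain of polymeric antibody and is abundant in plasma cells. Its reference signal was high, at 31123 to 62773 intensity units, and its tumour signal was 1761 to 6123 units. The log2 ratio was -3.73 and -3.86 in NYPD, -3.89 and -3.83 in YC, -3.96 and -3.79 in YE, -3.70 and -4.08 in YB, -3.99 and -4.03 in YD, and -4.14 and -4.39 in NDL25. NDL25 was lowest in both pools and did not overlap with YD, the next strain, and the other 5 strains overlapped in order. Mean levels were 13.9-fold (NYPD) to 19.2-fold (NDL25) under the reference.

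Jchain exceeded its NDL25 level by 0.47 ± 0.13 log2 units in NYPD (SE; 1.38-fold; limma adjusted p = 0.151), by 0.40 ± 0.13 in YC (0.304), by 0.39 ± 0.13 in YE (0.548) and by 0.37 ± 0.13 in YB (0.199). None of these passed the test, and all share the NDL25 pools. The sizes were not stable: YB against NDL25 was 0.19 without YB pool 1, 0.25 without NDL25 pool 2 and 0.56 without YB pool 2, and with the deposited ratios it was 1.01, while NYPD against NDL25 was then 0.04. The F test gave an adjusted p of 0.282. The probe also showed a dye offset, with a mean log2 ratio of -3.58 where tumour RNA was in Cy5 and -4.32 where it was in Cy3, which averages out because every pool had both. The second Jchain probe, left out of the fit because 1 spot in YC pool 1 was marked unusable, was saturated in the reference channel on 6 arrays. It read -5.41 to -4.33 in the remaining 11 pools, with NDL25 lowest (-5.27 and -5.41) and NYPD pool 1 highest.

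Set side by side, the strain comparisons called few members. In YB against NDL25, 1 of 7 was called (Blnk, higher), beside 3.91% of all genes in either direction and 3.13% higher, and 3 had an unadjusted p under 0.05 (Blnk, Cd79a and Jchain), as did 17.3% of all genes. In YB against NYPD, 2 of 7 were called (Blnk higher, Ms4a1 lower), beside 5.17% of all genes (4.08% higher and 1.1% lower). In NYPD against NDL25, none of the 7 was called by limma, beside 0.995% of all genes, and 3 had an unadjusted p under 0.05 (Jchain, Ms4a1 and Cd79b, all higher in NYPD), as did 15.7% of all genes. YE against NYPD called 0 of 7 beside 1.87% of all genes, with 1 at an unadjusted p under 0.05, as were 19.4% of all genes.

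The strains YC, YD and YE against NDL25, and YC and YD against NYPD, called 0 of 7 members each by limma, beside 0.00705%, 0.00705%, 0%, 0.0176% and 0.0317% of all genes in that order, and 1, 0, 1, 1 and 0 members had an unadjusted p under 0.05, beside 11.4%, 10.4%, 7.58%, 10.3% and 10.8% of all genes. Unadjusted counts for the gene lists below stand against the same shares. The median member difference ran from -0.18 (YE against NYPD) to 0.25 (YD against NDL25) over the 9 comparisons, while the median over all genes stayed between -0.01 and 0.01. The member median was not stable: in NYPD against NDL25, 0.20 as reported, leaving out NDL25 pool 1 gave 0.52, NYPD pool 2 gave 0.36 and NYPD pool 1 gave 0.04. In YB against NDL25, 0.19 as reported, it was 0.32 without NDL25 pool 1 and 0.08 without YB pool 1, and 0.88 with the deposited ratios. In YB against NYPD, -0.09 as reported, it was -0.19 without YB pool 1, -0.16 without NYPD pool 2, 0.06 without YB pool 2, 0.01 without NYPD pool 1 and 0.51 with the deposited ratios. Medians with the deposited ratios cover 6 members, because Pax5 was not tested there, and so are not over the same set. Without Blnk, the other 6 genes gave 54 differences between -0.86 and 0.58, of which 1 was called and 11 had an unadjusted p under 0.05. The 5 comparisons with NDL25 share its pools, as the 4 with NYPD share theirs.

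**Figure D4:**
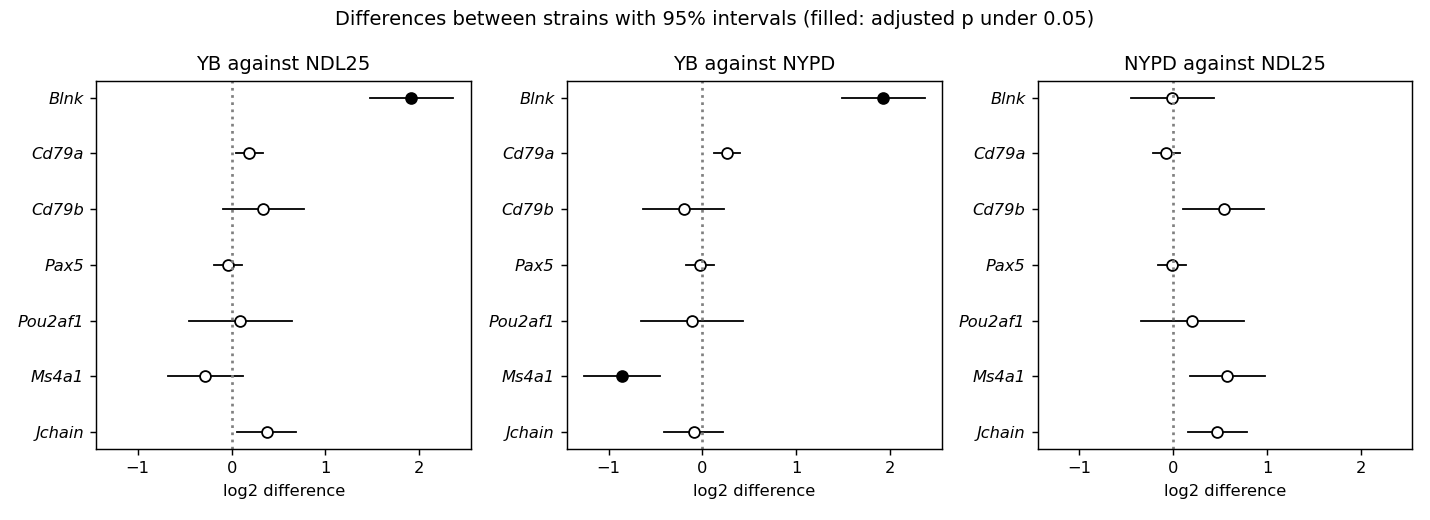
Log2 differences of the 7 genes between strains with 95% intervals from limma, in 3 of the 9 comparisons; filled points have an adjusted p under 0.05. Blnk is filled at 1.92 and 1.93 in the comparisons of YB, Ms4a1 is filled at -0.86 against NYPD, and no gene is filled in NYPD against NDL25.

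Other genes of the B cell receptor pathway gave no call by the F test. Of 20 surface and receptor signalling genes 19 were tested (Faim3 was not matched), and 0 passed by limma, while 7 had an unadjusted p under 0.05. The 4 with the smallest p were Cd72, an inhibitory coreceptor (adjusted p = 0.100), Plcg2, the phospholipase that BLNK brings to the receptor (0.109), Syk, the kinase that phosphorylates BLNK, and Cr2, the complement receptor CD21 (0.156). Plcg2 was highest in NYPD pool 1 (2.17) and YC pool 2 (2.06) and stood at 0.63 and 0.99 in YB, so it did not follow Blnk. Syk stood at 0.51 and -0.12 in YB, 0.25 and 0.35 in NYPD, and -0.45 to -0.13 in the other 8 pools.

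Over these 19 genes the median difference was 0.09 in YB against NDL25 with 0 called by limma (7 at an unadjusted p under 0.05), and -0.02 in YB against NYPD with 1 called, Cr2, higher by 0.24 ± 0.05 (1.18-fold; limma adjusted p = 0.0386). The second Cr2 probe read 0.06 and 0.03 in YB and 0.21 and -0.10 in NYPD, and the Cr2 call was lost in 18 of 21 alternative analyses. Cd72 stood at -0.85 and -0.85 in NDL25, -0.94 and -0.88 in YE, and -0.71 to -0.39 in the other 8 pools.

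Of 18 genes for B cell survival and homing to lymphoid tissue 17 were tested (Ccl21a was not matched), and Cxcl12 was the 1 that passed the F test (limma adjusted p = 0.00288). Cxcl12 encodes a chemokine that attracts CXCR4-bearing cells, B cell precursors and plasma cells among them. It stood at -0.94 and -0.95 in YB and at -3.98 to -2.70 in the other 10 pools, and exceeded NDL25 8.05-fold (3.01 ± 0.18; limma adjusted p = 0.000270) and NYPD 4.78-fold (2.26 ± 0.18; 0.00154). The second Cxcl12 probe read 0.06 and -0.95 in YB against -2.73 to -1.48 elsewhere, again without overlap. Its receptor Cxcr4 did not pass the F test (adjusted p = 0.127) and was highest in NYPD pool 1 (1.40).

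Ccr7, the receptor that guides lymphocytes to lymphoid tissue, rose in YB against NDL25 by 0.45 ± 0.08 (1.37-fold; limma adjusted p = 0.0256), a call lost in 13 of 23 alternative analyses. Il7r, the receptor for interleukin 7, fell in YE against NYPD (2.13-fold lower; limma adjusted p = 0.0421), a call lost in 12 of 21, and its second probe read -0.01 to 0.11 in all 12 pools.

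Among 14 transcription factors of the B lineage, all tested, 1 passed the F test: Prdm1, which encodes BLIMP-1, the repressor that drives plasma cell differentiation (limma adjusted p = 0.0263). Prdm1 stood at -0.39 and -0.37 in NYPD and at -1.42 to -0.97 in the other 10 pools. It exceeded NDL25 in NYPD by 0.80 ± 0.11 (1.74-fold; limma adjusted p = 0.0305) and was lower than NYPD in YB (1.76-fold; 0.0116) and in YE (2.03-fold; 0.0168). The call against NDL25 was lost in 11 of 21 alternative analyses, that of YB in 1 and that of YE in 2. Prdm1 is also expressed by T cells, macrophages and epithelial cells.

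Xbp1, the secretory regulator that acts after Prdm1 in plasma cells and also works in mammary epithelium, fell in YB against NYPD (2.50-fold lower; limma adjusted p = 0.0313), from 2.07 and 2.24 in NYPD to 0.43 and 1.24 in YB, a call lost in 10 of 21 alternative analyses. Pou2f2, the octamer-binding partner of POU2AF1, rose in the same comparison by 0.28 ± 0.06 (1.21-fold; 0.0369), a call lost in 16 of 21. Tcf3 fell in YE against NYPD (1.47-fold lower; 0.0325), a call lost in 13 of 21, and Bcl11a did not pass the F test (adjusted p = 0.0898). The list median was 0.12 in YB against NDL25 with 0 called by limma (3 at an unadjusted p under 0.05), and 0.23 in NYPD against NDL25 with 1 called.

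All 16 genes of plasma cells and antibody secretion were tested and 3 passed the F test, Prdm1, Creld2 and Derl3. Creld2 and Derl3, which serve protein folding and disposal in the endoplasmic reticulum, were highest in NDL25. Derl3 stood at 2.54 and 2.33 in NDL25, 1.95 and 1.87 in YE, and 0.52 to 1.62 in the other 8 pools, and fell in YB against NDL25 (3.28-fold lower; limma adjusted p = 0.0184), a call lost in 4 of 23 alternative analyses. Creld2 stood at 0.06 and 0.10 in NDL25 and -0.63 to -0.19 in the other 10 pools, and fell in NYPD against NDL25 (1.45-fold lower; 0.0386), a call lost in 12 of 21 alternative analyses. NDL25 was thus highest for these 2 genes while it was lowest for Jchain.

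Pigr, the epithelial receptor that carries J chain-bearing antibody into milk, rose in YB against NDL25 (2.69-fold; limma adjusted p = 0.0439). It was higher in both YB pools, 4.77 in pool 1, than in the other 10, which spanned 2.62 to 3.75, and the call was lost in 16 of 23 alternative analyses. Sec11c, a signal peptidase subunit, was higher in YB than in NYPD (1.73-fold; 0.0267), a call lost in 8 of 21. It stood at 0.40 and 0.74 in NYPD and at 1.29 and 1.42 in YB. NDL25 (1.22 and 1.38) and YE (1.32 and 1.25) were close to YB, so this was not a rise particular to YB. The list median was 0.21 in NYPD against NDL25 and 0.05 in YB against NDL25, with 1 gene called in each direction in both.

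The 17 immunoglobulin genes on the array averaged -0.23 and -0.36 in the NYPD pools, -0.34 and -0.54 in YB, -0.55 and -0.65 in NDL25, and -0.61 to -0.53 in YC, YD and YE. NYPD pool 1 was highest, and YB pool 2 overlapped with YC. None of the 17 passed the F test by limma, and 6 had an unadjusted p under 0.05. In NYPD against NDL25 their median difference was 0.29 with 0 called by limma and 6 at an unadjusted p under 0.05. The 4 with the smallest F test p were Igh-VJ558 (adjusted p = 0.0531), Igkv4-50 (0.100), a kappa segment of the same family (0.108) and Igk-V34 (0.126), all variable segments, whose probes can cross-react with related segments and are uncertain for that reason. With the brightest of its 3 probes Igh-VJ558 was higher in YB than in NDL25 (0.56 ± 0.09; limma adjusted p = 0.0168) and than in NYPD (0.48 ± 0.09; 0.0234). The other 2 probes read 0.02 and -0.44 for YB against NDL25. The call against NDL25 was lost in 6 of 23 alternative analyses, where the difference fell as low as 0.0099. The difference from NYPD turned to -0.36 with the mean of the probes that had a value in every pool. It turned to -0.17 when only the second array of each pair was used. The mean left out 1 probe, which had no value in YD pool 2.

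Markers of other leukocytes were measured on the same arrays. Of 14 T cell genes 0 passed the F test by limma (3 at an unadjusted p under 0.05), and their mean lay between -0.33 and -0.20 in all 12 pools. Cd6, a T cell coreceptor, rose in YB against NDL25 (1.22-fold; limma adjusted p = 0.0308), a call lost in 17 of 23 alternative analyses. The second Cd6 probe gave 0.04 for this difference. For YB against NYPD it gave -0.22, where the probe in the fit gave 0.36. Of 12 pan-leukocyte genes 1 passed, Cd53, a tetraspanin, at -0.77 and -0.60 in NYPD and -2.06 to -1.29 in the other 10 pools; it was 2.31-fold higher in NYPD than in NDL25 (limma adjusted p = 0.0228), a call lost in 3 of 21 alternative analyses. Of 14 macrophage genes 3 passed, Cd14, Lyz2 and Mpeg1, and Cd14 rose 4.79-fold in YB against NDL25 (0.00689) and 4.71-fold in NYPD against NDL25 (0.0228), calls lost in 3 of 23 and 2 of 21. The pan-leukocyte mean was higher in NYPD (-0.81 and -0.76) than in NDL25 (-1.28 and -1.34), as were Ms4a1, Cd79b, Jchain and the immunoglobulin mean, and its part in those values was not tested.

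**Figure D5:**
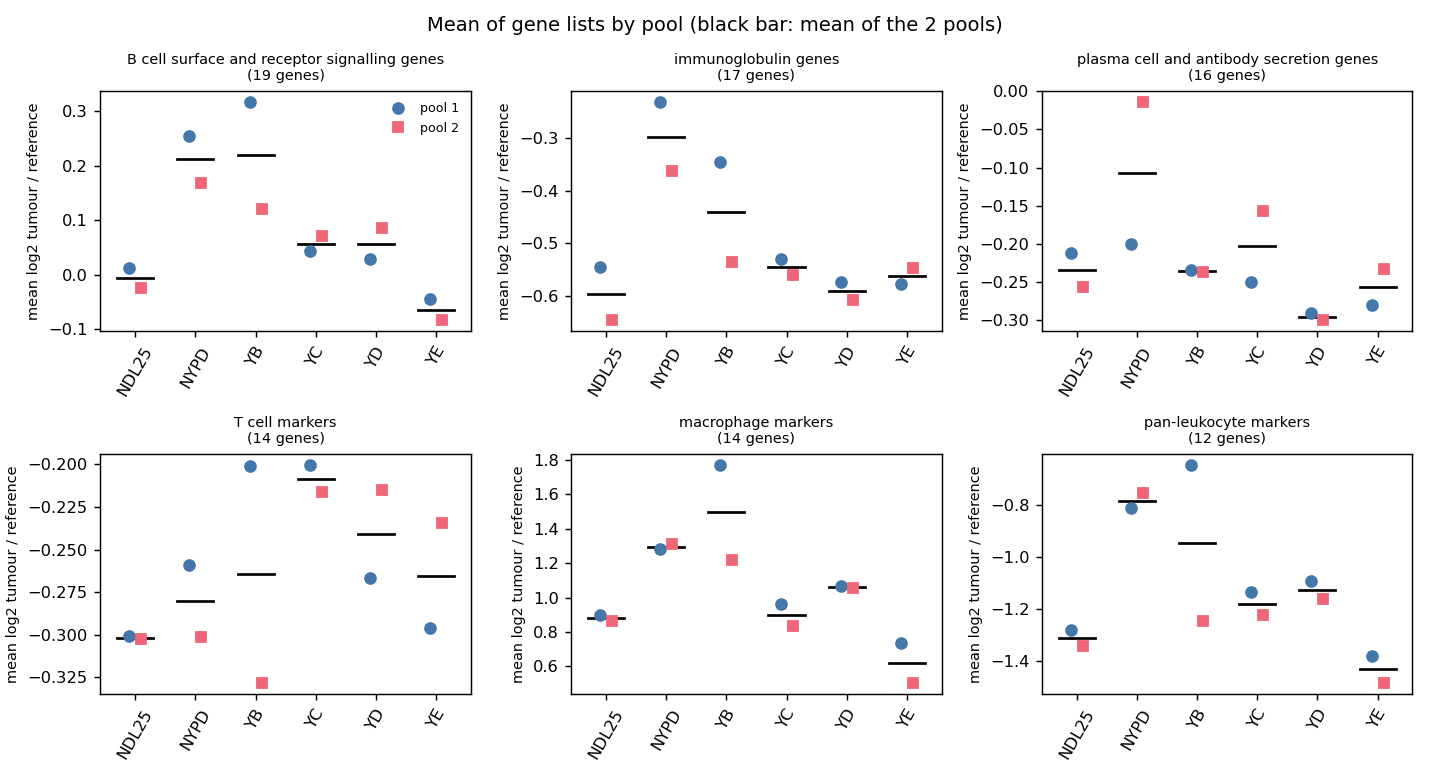
Mean log2 tumour over reference of 6 gene lists in the 12 pools (circles pool 1, squares pool 2, bars the mean of the 2 pools); the vertical scales differ between panels. The immunoglobulin mean is highest in NYPD pool 1 (-0.23), the pan-leukocyte mean in YB pool 1 (-0.65), and the T cell mean spans only -0.33 to -0.20.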

How the data were processed

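The 12 tumour RNA pools (2 per strain) were measured on 24 two-colour Agilent arrays. Per the file headers, the scanner files hold mean spot and median background intensity for each channel and were written by Agilent Feature Extraction. For each dye-swap pair the authors deposited ratios, read here as log2, for which RMA, limma and R 2.3.0 are listed in the submitters' processing notes; their exact normalization, direction and log base are not given in the sources used here, and base 2 was taken.

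The labels do not say which dye carried the tumour RNA on which array. It was read from the sign of the median over the luminal and milk genes on each array. Within that list Csn2, Lalba and Krt8 lay towards tumour wherever they had a value, and Afp, outside it, lay towards the reference. A list of reference markers, Afp among them, did not enter the call, and its median stayed near 0 (log2 red over green -0.13 to 0.14). The deposited ratios followed the resulting ratios at r = 0.983 to 0.988 over probes, with medians of -0.00255 to 0.0143. Slopes were 0.708 to 0.953 (recomputed on deposited), so the deposited ratios spread more widely.

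Intensity was background-corrected with limma 3.58.1 in R 4.3.3 (normexp, offset 50) and loess-normalized within arrays; each pair was turned to tumour over reference and averaged. Probes with a marked spot (698), whose tumour signal was well above background on under 4 arrays (312) or dimmer than another probe of their gene (11813) were left out, leaving 28351 genes. Names came by accession from RefSeq for 20716 probes, by symbol for 5039 and by synonym for 5279; 10140 kept the file's name. A model of 6 strain means over 12 pools (6 residual degrees of freedom) gave an F test and 9 strain contrasts, with p adjusted over all 28351 genes. No check can separate pool spread from the tumours within a pool, and the number of arrays limits precision; the median SE of a difference was 0.11. On simulated data with 100 genes moved by each size, YB against NDL25 recovered 82 at a log2 change of 1 and 86 at 2, with 10 false calls.

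The 7 members and all gene lists were chosen with earlier results of these data known. All members were named; of each list, up to 4 genes by the smallest F test p and up to 4 called in a contrast; and the 5 genes most like a member whose pools spanned at least 1 log2 unit. One gene that this rule names is not reported here. Alternatives were other backgrounds and scalings, deposited ratios, no filter, mean over probes, 1 array per pair, session and replicate blocks, and each pool left out.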

Additional observations from a re-analysis of the deposited data

How the results depend on the processing

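The number of members called was the same under every alternative in 8 of the 10 tests, the exceptions being YB against NDL25 and YB against NYPD. In YB against NDL25 it was 0, in place of 1, within session 2, an alternative chosen after seeing the data that has fewer pools. In YB against NYPD it was 1, in place of 2, with the deposited ratios, the mean over probes, the first array or the second array of each pair, or the other Ms4a1 probe (also chosen after seeing the data), and 1 to 2 when each pool was left out in turn; Ms4a1 was the gene lost. Blnk kept its F test call in 21 of 21 alternatives (adjusted p 0.00268 to 0.0424), its call against NDL25 in 22 of 23 (1.70 to 2.13 log2 units) and its call against NYPD in 21 of 21 (1.80 to 2.05). Many of these could not change the size of a Blnk difference, so the counts overstate how far it was tried. They were no filter, the mean over probes, the other Ms4a1 probe, the blocks, and leaving out a pool of a strain not compared. With the session block Blnk in YB against NDL25 was 1.92 (limma adjusted p = 0.0113). The block could not change that size, because all arrays of both strains were in session 2. Igh-VJ558 in YB against NYPD reversed to -0.36 with the mean over probes and to -0.17 with the second array of each pair. The labels do not pair pools across strains, and deviations of same-numbered pools correlated at -0.17 to 0.71; with the replicate block Blnk in YB against NDL25 had a limma adjusted p of 0.000546 and no member count changed. Counts over all genes moved widely, for example from 159 to 1300 in the F test (902 as reported), 12 to 1211 in YB against NDL25 (1109), 395 to 1812 in YB against NYPD (1467), 0 to 583 in NYPD against NDL25 (282) and 1 to 991 in YE against NYPD (530). Pax5 was not tested with the deposited ratios because a value is missing there. With 2 pools per strain, small differences such as those of Cd79a and Jchain are at the edge of what the design resolves.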
